A study of Mus musculus with 2 samples.

Results

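Saa3, Lrg1, Lcn2, Hp, C3, Serpina3n, Serpina3f, Il6, Il6ra and Socs3 are genes of the acute-phase reaction and of the IL-6 pathway that drives it. They were taken by symbol and were 10 of the 32286 features counted in single cells of the mouse lung. The lungs came from female BALB/c mice of 9 to 10 weeks, injected intravenously for 3 weeks with control media (CM) or with tumor conditioned media (TCM). TCM was medium in which pieces of excised 4T1 mammary tumors had been kept, and CM was the same medium kept without tumor, so that no mouse of either group carried a tumor and the agent was the pooled secretion of several tumors. Each group was 1 library, and the number of mice behind a library was not given in the sources used here. With 1 library a group there was no replicate check and no test was possible. Intervals below are 95% intervals for counting error only and say nothing of the spread between mice.

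IL-6 binds its receptor (Il6ra) and the shared subunit gp130 (Il6st), and JAK kinases then activate STAT3. STAT3, together with C/EBP and NF-kB factors, switches on acute-phase protein genes, while Socs3, itself a STAT3 target, shuts the receptor off. The liver is the main source of acute-phase proteins in blood, but lung epithelium, fibroblasts, endothelium and myeloid cells also make some of them, and neutrophils store Lcn2 and Hp protein in granules.

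Promoter sequences are shown to set apart members with and without the letters bound by these factors. The windows are the 250 bases before the RefSeq start on GRCm38.p6, and 9 members had an entry; Hp had none. By the GENCODE gene positions given below, the Lcn2 and Socs3 windows lie inside the gene, and the Lrg1 and Saa3 windows overlap it. Matches in these windows therefore describe the bases before the RefSeq start only. Capitals mark matches on either strand to TTCNNNGAA (STAT), TTNNGNAA (C/EBP) or GGNNTTTCC (NF-kB). Lrg1 lies at chr17:56121947-56122196 (minus strand), Lcn2 at chr2:32387740-32387989 (minus), Saa3 at chr7:46715677-46715926 (minus), C3 at chr17:57228137-57228386 (minus), Il6 at chr5:30012864-30013113 (plus) and Socs3 at chr11:117969367-117969616 (minus).
Lrg1: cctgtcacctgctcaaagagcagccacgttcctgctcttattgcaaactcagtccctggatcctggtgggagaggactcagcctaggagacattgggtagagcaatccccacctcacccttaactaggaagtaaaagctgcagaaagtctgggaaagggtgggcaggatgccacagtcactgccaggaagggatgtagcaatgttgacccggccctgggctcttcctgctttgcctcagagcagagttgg
Lcn2: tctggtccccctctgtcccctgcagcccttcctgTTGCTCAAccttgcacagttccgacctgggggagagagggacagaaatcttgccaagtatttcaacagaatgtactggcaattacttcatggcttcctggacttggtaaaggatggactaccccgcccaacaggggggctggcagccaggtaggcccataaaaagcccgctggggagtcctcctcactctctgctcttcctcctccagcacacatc
Saa3: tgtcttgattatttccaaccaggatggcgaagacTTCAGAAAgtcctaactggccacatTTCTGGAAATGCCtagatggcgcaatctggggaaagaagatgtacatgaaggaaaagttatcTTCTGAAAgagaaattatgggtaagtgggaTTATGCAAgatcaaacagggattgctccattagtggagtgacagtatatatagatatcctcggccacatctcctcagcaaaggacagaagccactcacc
C3: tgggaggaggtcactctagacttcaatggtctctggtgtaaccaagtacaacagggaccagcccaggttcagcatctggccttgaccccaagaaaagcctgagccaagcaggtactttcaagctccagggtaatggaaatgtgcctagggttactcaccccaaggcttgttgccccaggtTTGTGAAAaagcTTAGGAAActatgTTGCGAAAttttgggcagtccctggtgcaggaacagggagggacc
Il6: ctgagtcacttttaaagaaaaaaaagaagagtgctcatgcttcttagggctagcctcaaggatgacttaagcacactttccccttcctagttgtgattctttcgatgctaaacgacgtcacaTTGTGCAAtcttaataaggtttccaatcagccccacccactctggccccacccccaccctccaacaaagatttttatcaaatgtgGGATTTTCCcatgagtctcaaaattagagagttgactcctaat
Socs3: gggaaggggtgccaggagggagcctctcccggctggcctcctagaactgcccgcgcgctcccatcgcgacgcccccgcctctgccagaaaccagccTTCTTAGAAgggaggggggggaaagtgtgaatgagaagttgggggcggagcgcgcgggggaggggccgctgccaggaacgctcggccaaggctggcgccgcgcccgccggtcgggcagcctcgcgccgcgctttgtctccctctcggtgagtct

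A STAT match stood in 2 of the 9 members, Serpina3f and Socs3, against 7.02% of 32851 promoters of the same length. In Socs3 it covered bases -154 to -146 from the start. A C/EBP match stood in 7 of 9 members against 36.8% of all promoters, with 3 matches between -70 and -38 in C3 and 4 in Saa3. An NF-kB match stood in Saa3, Serpina3n and Il6, 3 of 9 against 4.93%. In Saa3 the NF-kB match (-187 to -179) overlapped a C/EBP match (-191 to -184), which gives the longer capital run. All 3 genes with an NF-kB match also held a C/EBP match, a pairing found in 2.06% of promoters. The Lrg1 window held none of these letters. A match is a description of letters and was not tested for binding.

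The libraries held 31944151 (CM) and 36648719 (TCM) UMIs, and 7988 and 7707 droplets passed as cells (at least 500 UMIs and 200 genes, at most 10% mitochondrial UMIs), with medians of 2085 and 2346 UMIs. Cells were put in classes by 10 markers each, and a class is called X-like since it was built here and not taken from the study. The gate placed 5556 CM and 5903 TCM cells, of which 14.8% and 11.8% lay near its threshold. The median neutrophil-like cell held 113 (CM) and 200 (TCM) UMIs of its own 10 markers and 6 and 9 UMIs of airway secretory markers, the highest of any other class. In each of the 14 main classes with at least 50 cells in both libraries, 1 Leiden cluster, the same in both libraries, held most cells, and 93 barcodes occurred in both. Endothelial markers were absent from the 10 genes with the largest fold in the endothelial-like class, which was led by vessel genes such as Vwf and Plvap. Droplets with at most 50 UMIs, which hold free RNA, carried all 10 neutrophil markers at 172 (CM) and 826 (TCM) counts per 100000 UMIs (CP100k, the unit of every level below).

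In TCM the lung cells held more UMIs of Lrg1, Lcn2 and Hp, and most of them lay in neutrophil-like cells. Over all cells Lrg1 stood at 5.46 in CM and 70.1 in TCM, Lcn2 at 11.6 and 39.1, and Hp at 25.7 and 62.0. Il6 stood at 0.876 and 0.821, and Socs3 at 21.7 and 25.2. Within neutrophil-like cells Lrg1 was 7.65-fold higher in TCM. Neutrophil-like cells were themselves 231 of the CM cells (2.89%) and 1405 of the TCM cells (18.2%), a difference that is also between 1 library and 1 library.

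**Figure D1:**
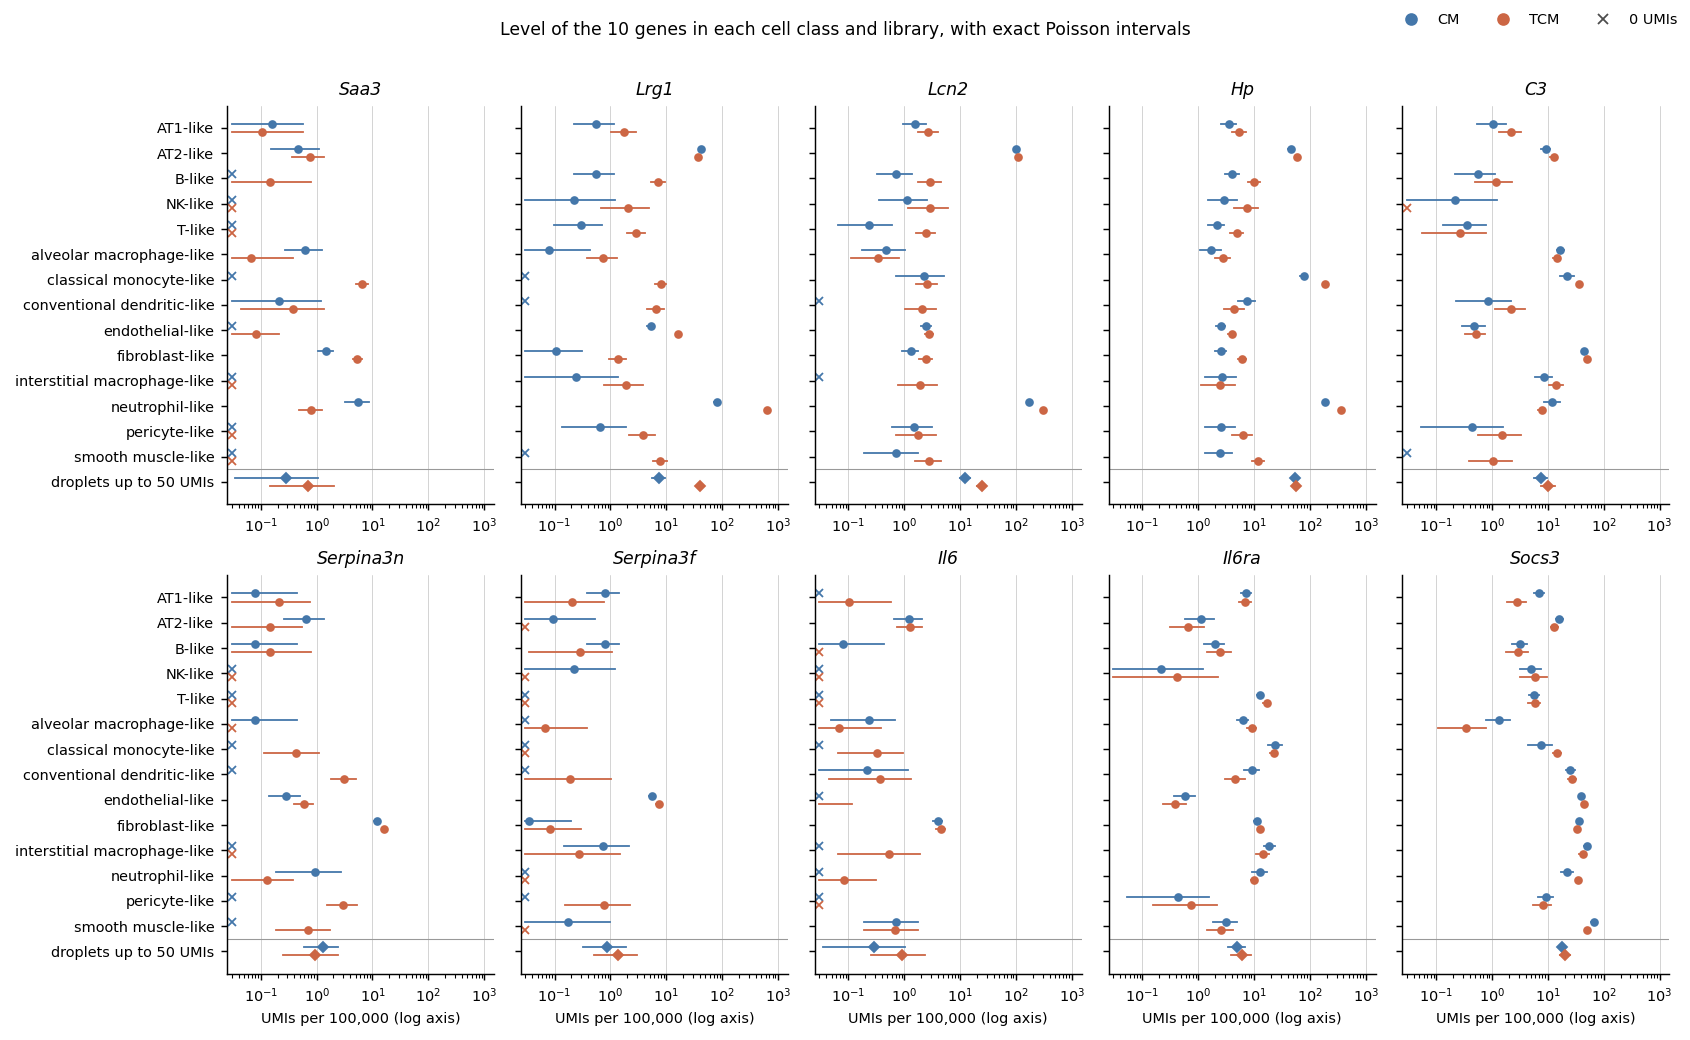
Level of each member (CP100k, log axis) by cell class in CM and TCM. Points are summed UMIs of a class in 1 library, bars are exact 95% Poisson intervals for counting error, crosses are sums of 0 and diamonds are droplets with at most 50 UMIs. Lrg1 in neutrophil-like cells stands at 82.1 in CM and 628 in TCM, while Il6 in fibroblast-like cells stands at 3.99 and 4.52.

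Among the signalling members, Il6, the ligand (chr5:30013114-30019981, plus strand), was sparse. Fibroblast-like cells held 114 CM UMIs (3.99) and 111 TCM UMIs (4.52), with log2 0.18 (-0.21 to 0.57). The libraries did not separate there beyond counting error. Within this class, alveolar fibroblast-like cells held 53 UMIs in CM and 95 in TCM (2.29 and 4.51, log2 0.97), and 40 CM UMIs lay in fibroblast-like cells of neither subclass, which held 0 in TCM. The highest Il6 levels were in basophil- or mast-like cells, at 63.6 and 103, but only 23 CM and 15 TCM cells made up that class and no ratio was formed. AT2-like cells held 13 and 17 Il6 UMIs. With each cell thinned to 1000 UMIs, 1.74% of CM and 2.83% of TCM fibroblast-like cells held an Il6 UMI (6.69% and 8.11% unthinned), against 0 of 525 and 0 of 382 T-like cells, where the limit of 3 counts allows up to 0.571% and 0.785% and the Clopper-Pearson upper bounds were 0.7% and 0.961%. Median depths were 4194 and 4740.5 UMIs in fibroblast-like and 2495 and 2405.5 in T-like cells.

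Il6ra, the receptor subunit that binds IL-6 (chr3:89864059-89913196, minus strand), was spread over leukocytes and fibroblast-like cells. Among the 14 main classes its highest CM levels were in classical monocyte-like cells (24.0), interstitial macrophage-like cells (18.9), T-like cells (12.9) and neutrophil-like cells (12.9). In TCM the same classes stood at 22.4, 14.3, 16.8 and 10.2. The T-like log2 ratio was 0.38 (0.09 to 0.67), and in neutrophil-like cells it was -0.34 (-0.82 to 0.17). In CM the intervals of the classical monocyte-like and interstitial macrophage-like levels overlapped, as did those of T-like and neutrophil-like cells. Within T-like cells, CD4 T-like cells held 20.9 and 20.2, and CD8 T-like cells 6.72 and 11.8. Conventional dendritic-like cells went from 43 UMIs to 25 (log2 -0.97, -1.74 to -0.23). No compared class with calls reached a 2-fold ratio of Il6ra. Endothelial-like cells held 23 and 19 UMIs, and free RNA alone gave an expectation of 7.79 and 20.7. Thinned, 13.1% of T-like cells held an Il6ra UMI in each library (25.6% and 29.1% unthinned), against 6.18% and 8.62% of AT1-like cells (median depths 2184 and 1823).

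Socs3, the feedback inhibitor (chr11:117966079-117970047, minus strand), was the member with most UMIs outside the acute-phase proteins. Its level in CM was highest in smooth muscle-like cells (66.6), then interstitial macrophage-like (50.3), endothelial-like (39.7) and fibroblast-like cells (36.3). In TCM these stood at 51.3, 42.0, 45.0 and 33.7. The CM intervals of endothelial-like and fibroblast-like cells overlapped, and the TCM intervals of interstitial macrophage-like cells overlapped those of smooth muscle-like and endothelial-like cells. Endothelial-like cells held 1575 and 2203 UMIs, a log2 ratio of 0.18 (0.09 to 0.28), and smooth muscle-like cells 383 and 297 (log2 -0.38, -0.60 to -0.15, but 0.07 with cells thinned to 1000 UMIs). Vessel subclasses went both ways, with general capillary-like cells at log2 0.24 (0.14 to 0.34) and aerocyte-like cells at -0.62 (-1.09 to -0.15). Neutrophil-like cells went from 72 UMIs to 830, or 22.1 to 35.2 (log2 0.67, 0.33 to 1.04), and classical monocyte-like cells from 17 to 137 (log2 0.95, 0.22 to 1.77). AT1-like cells went from 88 UMIs in CM to 27 in TCM (6.93 and 2.81, log2 -1.30, -1.98 to -0.67). Of these, free RNA gave an expectation of 8.86 and 13.8 UMIs. The AT1-like ratio was at least 2-fold under all but 1 alternative, -0.79 with Leiden clusters. In CM 68.0% of AT1-like cells lay in the main cluster of the class, against 88.7% in TCM. How far this bears on the ratio was not tested. Alveolar macrophage-like cells held 17 and 5 Socs3 UMIs, against 4.95 and 12.6 expected from free RNA. Thinned shares with a Socs3 UMI were 20.4% and 26.0% in endothelial-like cells (32.0% and 39.7% unthinned, median depths 2217 and 2814.5) and 4.63% and 1.72% in AT1-like cells.

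Lrg1, a secreted leucine-rich glycoprotein that acts on TGF-beta signalling in vessels and is stored in neutrophil granules (chr17:56119678-56122001, minus strand), differed most. The neutrophil-like sums were 268 UMIs at 82.1 (CM) and 14803 UMIs at 628 (TCM), giving a log2 ratio of 2.94 (2.76 to 3.11). Free RNA gave an expectation of 1.93 and 134 of these UMIs. The median cell went from 0 Lrg1 UMIs to 8, and after thinning to 1000 UMIs from 0 to 5. Thinned, 40.6% of 160 CM cells (32.9 to 48.7, Clopper-Pearson) and 96.2% of 1094 TCM cells (94.9 to 97.3) held a Lrg1 UMI. T-like cells, taken as the background class, gave 0 of 525 (up to 0.571%) and 2.36%. Unthinned shares were 41.6% and 95.9% at median depths of 1254 and 1542 UMIs. Lrg1 was thus found in nearly every TCM neutrophil-like cell and not in a few rich ones. The 71 CM and 311 TCM cells under 1000 UMIs were left out of the thinned shares.

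**Figure D2:**
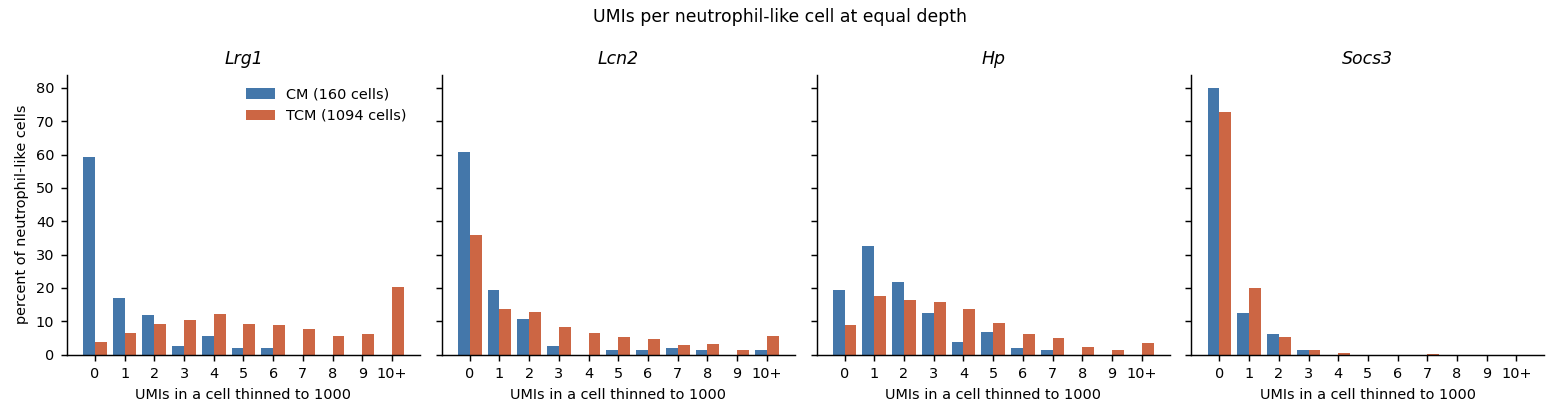
UMIs per neutrophil-like cell after thinning each cell to 1000 UMIs, as the percent of 160 CM and 1094 TCM cells holding each number. For Lrg1, 59.4% of CM and 3.75% of TCM cells hold 0 UMIs, and 20.4% of TCM cells hold 10 or more.

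Endothelial-like cells also held more Lrg1 in TCM, 209 UMIs against 799 (5.27 and 16.3, log2 1.63, 1.41 to 1.86). Free RNA gave an expectation of 11.7 and 135 of them. Without cells that held UMIs of at least 3 of the 10 neutrophil markers the sums were 203 and 715 (log2 1.56, 1.33 to 1.79). The ratio thus stayed above 2-fold without those cells. General capillary-like cells went from 134 to 573 UMIs (log2 1.75, 1.48 to 2.03), aerocyte-like cells from 9 to 25 (log2 1.46, 0.31 to 2.74; free RNA expectation 16.1 in TCM) and other endothelial-like cells from 25 to 99 (log2 1.65). Large vessel-like cells stood at 11.8 and 43.2 and lymphatic-like cells at 64.4 and 87.1, each with too few cells for a ratio. Thinned, 4.01% and 9.79% of endothelial-like cells held a Lrg1 UMI (6.15% and 18.9% unthinned). AT2-like cells, with 448 and 494 UMIs, held 41.8 and 36.9 (log2 -0.18, -0.37 to 0.01), so their levels did not separate.

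Small sums of Lrg1 were also higher in TCM in other classes, which held more neutrophil marker RNA there as well. T-like cells held 5 and 32 UMIs where free RNA gave an expectation of 5.38 and 45.3, and fibroblast-like cells 3 and 33 against 5.54 and 48.2. B-like cells held 7 and 50, and without cells carrying 3 neutrophil markers 7 and 10 (log2 1.48, -0.06 to 3.11). The same omission left 5 and 15 in T-like cells (log2 2.27, 0.74 to 4.09) and 3 and 21 in fibroblast-like cells (3.09, 1.34 to 5.48). It left 5 and 10 in AT1-like cells (1.42, -0.26 to 3.32), 1 and 13 in pericyte-like cells (3.99, 1.25 to 9.40) and 0 and 19 in classical monocyte-like cells. Smooth muscle-like cells held 0 and 45, an at least 14.9-fold higher level, from 10 TCM cells of which 5 carried 3 neutrophil markers. With the top 6% of doublet scores removed that log2 ratio was 0.80, below 2-fold. Without cells carrying 3 neutrophil markers, fewer than 10 Lrg1 UMIs remained in smooth muscle-like cells over both libraries. The neutrophil marker level in T-like cells was 6.58 in CM and 94.4 in TCM with Ly6g at 0 in both, and in smooth muscle-like cells 5.39 and 202 with Ly6g and Mmp8 at 0 in both. Classical monocyte-like cells held 0 and 74 Lrg1 UMIs, and 25 of the 34 TCM cells with Lrg1 carried 3 neutrophil markers, as did 100 of all 184. With cells thinned to 1000 UMIs the log2 ratio of that class was -0.229. Conventional dendritic-like cells held 0 and 35, and 3 of the 6 TCM cells with Lrg1 carried them. The part of this RNA in each of these ratios was not tested beyond these values.

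Lcn2, lipocalin 2, which binds bacterial siderophores (chr2:32384633-32388252, minus strand), was shared by neutrophil-like and AT2-like cells. Neutrophil-like cells held 562 UMIs in CM and 7065 in TCM, at 172 and 300 (log2 0.80, 0.68 to 0.93). In CM 63.0% of those UMIs lay in 12 cells with granule gene RNA (at least 3 UMIs of Camp, Ltf and Ngp, genes of granule formation in immature neutrophils), against 6.2% in 13 such cells of TCM. Without these cells the log2 ratio was 1.97, a choice made after seeing the data. Thinned, 39.4% (31.7 to 47.4) of CM and 64.3% (61.3 to 67.1) of TCM neutrophil-like cells held a Lcn2 UMI, against 0.19% and 2.09% of T-like cells (41.1% and 66.8% unthinned). The level in the class thus rested on few rich cells in CM and on many cells in TCM. AT2-like cells held 1093 and 1447 UMIs, at 102 and 108 (log2 0.08, -0.03 to 0.20). Their thinned shares were 41.8% and 50.8%, and their unthinned shares, 50.7% and 73.1%, came with median depths of 1437 and 4713 UMIs. Called Lcn2 sums in B-like cells (9 and 20 UMIs) and T-like cells (4 and 27) lay at or below the free RNA expectation of 9.29 and 20.3, and of 9.06 and 27.7.

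Hp, haptoglobin, which binds free hemoglobin (chr8:109575128-109579172, minus strand), was high in ciliated-like, airway secretory-like, neutrophil-like and classical monocyte-like cells. Neutrophil-like cells went from 599 to 8393 UMIs, 184 and 356 (log2 0.96, 0.84 to 1.08), and 80.6% and 91.1% of thinned cells held one (76.2% and 91.7% unthinned), against 1.71% and 4.45% of T-like cells. Classical monocyte-like cells went from 173 to 1722 UMIs, 77.0 and 183 (log2 1.25, 1.03 to 1.49). Thinned, 44.2% (29.1 to 60.1) of 43 CM and 75.6% (68.4 to 81.9) of 168 TCM cells held Hp (67.3% and 96.7% unthinned, median depths 4551 and 5480). Both myeloid classes thus held more Hp in TCM, and the intervals of their ratios overlapped. Without cells carrying 3 neutrophil markers, which were 8 of 55 CM and 100 of 184 TCM cells of that class, the monocyte log2 ratio was 1.31. AT2-like cells stood at 45.0 and 59.1 (log2 0.39, 0.23 to 0.56). Ciliated-like cells stood at 335 and 233 and airway secretory-like cells at 424 and 512, with too few cells for a ratio. Endothelial-like cells held 100 and 195 Hp UMIs, near the 85.4 and 191 expected from free RNA, and their log2 ratio of 0.66 became -2.04 once that was subtracted. Called Hp sums exceeded that expectation in fibroblast-like cells (73 and 149 UMIs, 40.5 and 68.0 expected), B-like cells (52 and 69, 40.3 and 46.8 expected) and smooth muscle-like cells (14 and 69, 9.54 and 14.1 expected), and in T-like cells (36 and 55) they lay below it (39.3 and 63.9). In fibroblast-like cells the log2 ratio was 0.33 with cells thinned to 1000 UMIs, where 2.96% and 3.85% of cells held Hp, and adventitial fibroblast-like cells held 21 UMIs in 8 CM cells and 0 in TCM.

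Saa3, the serum amyloid A made outside the liver (chr7:46711998-46715700, minus strand), lay in few cells. Fibroblast-like cells held 42 UMIs in 6 CM cells and 132 in 7 TCM cells (1.47 and 5.37, log2 1.87, 1.36 to 2.40), with up to 27 and 66 UMIs in 1 cell. Classical monocyte-like cells held 0 and 62, and 0 and 16 without cells carrying 3 neutrophil markers. The neutrophil-like sums were 18 UMIs in 2 cells and 19 in 13 cells (log2 -2.77, -3.78 to -1.76), and 17 of the CM UMIs lay in 1 cell. Cells of no class held 108 and 50. Each of these sums lay in 20 cells or fewer.

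C3, the central complement component (chr17:57203970-57228136, minus strand), was found in mesothelial-like, fibroblast-like and myeloid cells. Fibroblast-like cells held 1284 and 1222 UMIs, at 45.0 and 49.7 (log2 0.14, 0.03 to 0.26), with adventitial fibroblast-like cells at 110 and 134 and alveolar fibroblast-like cells at 31.6 and 35.9. Mesothelial-like cells had the highest level, 260 (237 to 283) in 31 CM cells and 668 (628 to 710) in 30 TCM cells, with no ratio formed for so few cells. Alveolar macrophage-like cells stood at 16.8 and 14.5 (log2 -0.22, -0.50 to 0.06). Classical monocyte-like cells went from 50 to 346 UMIs, 22.3 and 36.8 (log2 0.73, 0.30 to 1.19), in TCM about the level of alveolar fibroblast-like cells. Without cells carrying 3 neutrophil markers the monocyte log2 ratio was 0.40 (-0.19 to 1.01). Neutrophil-like cells held 39 and 185, at 11.9 and 7.84 (log2 -0.61, -1.11 to -0.07), and without the granule gene cells the ratio was 0.22. AT1-like cells held 13 and 21 C3 UMIs (log2 1.09, 0.03 to 2.21). Fibroblast-like cells held 42.2% of all C3 UMIs in CM and 27.1% in TCM. Thinned, 25.4% and 27.1% of fibroblast-like cells held a C3 UMI (47.4% and 51.5% unthinned) and 0 of the T-like cells did.

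The serpins, secreted protease inhibitors of 1 gene cluster, split by tissue. Serpina3n (chr12:104406729-104414329, plus strand) lay in fibroblast-like cells, with 344 and 403 UMIs (12.1 and 16.4, log2 0.45, 0.23 to 0.66). Alveolar fibroblast-like cells stood at log2 0.69 (0.45 to 0.94) and adventitial ones stood at -0.56 (-1.15 to 0.00), so that the subclasses differed in sign. Endothelial-like cells held 11 and 29 Serpina3n UMIs (log2 1.096, 0.05 to 2.25), and conventional dendritic-like cells 0 and 17. Serpina3f (chr12:104214544-104221129, plus strand) lay in endothelial-like cells, with 220 and 360 UMIs (5.55 and 7.36, log2 0.41, 0.16 to 0.66). General capillary-like cells held 180 and 302 of them (log2 0.40, 0.13 to 0.68). The genes are close relatives, and reads shared between serpin copies could be split in counting.

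Calls were made by size: at least 20 UMIs of the gene over both libraries in a class of at least 100 cells each, and a ratio of at least 2-fold. Of 60 member and class pairs 19 were higher in TCM and 3 lower, against 2.62% higher and 3.19% lower among 86699 pairs of all genes. The members were chosen with earlier results of these data known, so these shares are not an independent comparison. Some pairs reached 20 UMIs only through their TCM sum, such as Lrg1 in T-like cells (5 and 32 UMIs). In neutrophil-like cells 1 of 7 members was higher (Lrg1) and 1 lower (Saa3), where 8.24% of all genes were higher and 12.6% lower. In endothelial-like cells 2 of 8 were higher (Lrg1, Serpina3n) and 0 lower (background 1.56% and 1.01%). In fibroblast-like cells 3 of 9 were higher (Saa3, Lrg1, Hp) and 0 lower (1.19% and 1.55%). In smooth muscle-like cells 3 of 5 were higher (Lrg1, Lcn2, Hp) and 0 lower (2.94% and 2.56%), and in pericyte-like cells 1 of 2 (Hp) and 0 (2.35% and 2.29%). In AT1-like cells 2 of 6 were higher (Lrg1, C3) and 1 lower (Socs3), against 1.53% and 4.09%. In AT2-like cells 0 of 7 passed either way (2.62% and 4.87%). B-like cells had 3 of 5 higher (Lrg1, Lcn2, Hp) and 0 lower (2.6% and 2.89%), T-like cells 3 of 5 higher (the same 3 genes) and 0 lower (1.93% and 2.0%), and NK-like cells 1 of 2 higher (Hp) and 0 lower (3.02% and 3.79%). In alveolar macrophage-like cells 0 of 4 were higher and 1 lower (Socs3), against 3.3% and 1.02%. Median log2 ratios of the members were 1.99 in smooth muscle-like, 1.29 in B-like, 1.22 in T-like, 0.79 in NK-like, 0.69 in AT1-like and 0.67 in neutrophil-like cells. They were 0.54 in pericyte-like, 0.45 in fibroblast-like, 0.29 in endothelial-like, 0.14 in alveolar macrophage-like and 0.07 in AT2-like cells. The medians of all genes lay between -0.18 (neutrophil-like) and 0.11 (alveolar macrophage-like). Each member median rests on 2 to 9 genes.

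Lrg1, Lcn2 and Hp made up 16 of the 22 called pairs. After the expected free RNA was subtracted, 11 of the 22 pairs were still called, 4 were not and 7 had no value since both sums were at or below 3. The 9 higher pairs still called were Lrg1 in neutrophil-like, endothelial-like and smooth muscle-like cells, Hp in B-like, fibroblast-like and smooth muscle-like cells, C3 in AT1-like, Saa3 in fibroblast-like and Serpina3n in endothelial-like cells. With cells outside the neutrophil-like class left out where they carried 3 neutrophil markers, 13 of 55 pairs were higher and 2 lower. Over all genes that setting gave 2.49% higher and 3.21% lower. Of the 9 pairs, Hp in B-like (0.99) and C3 in AT1-like cells (0.89) were below 2-fold in it. Lrg1 in smooth muscle-like cells kept too few UMIs for a call. Lrg1 in endothelial-like (1.56) and Hp in fibroblast-like (1.23) and smooth muscle-like cells (1.79) stayed above 2-fold. So did Saa3 in fibroblast-like (1.93) and Serpina3n in endothelial-like cells (1.22). Of the 22 pairs, 10 were at least 2-fold in every alternative that gave a value. These 10 included Lrg1 in T-like and fibroblast-like and Lcn2 in B-like and T-like cells, which gave no value with free RNA subtracted. They also included Socs3 in alveolar macrophage-like cells, not called after that subtraction. The lowest log2 ratios of pairs outside these 10 over the alternatives included 0.06 for Lcn2 and 0.55 for Hp in smooth muscle-like cells, 0.49 for Lrg1 and 0.63 for Hp in B-like cells, 0.26 for Lrg1 in AT1-like cells and 0.66 for Hp in NK-like cells.

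**Figure D3:**
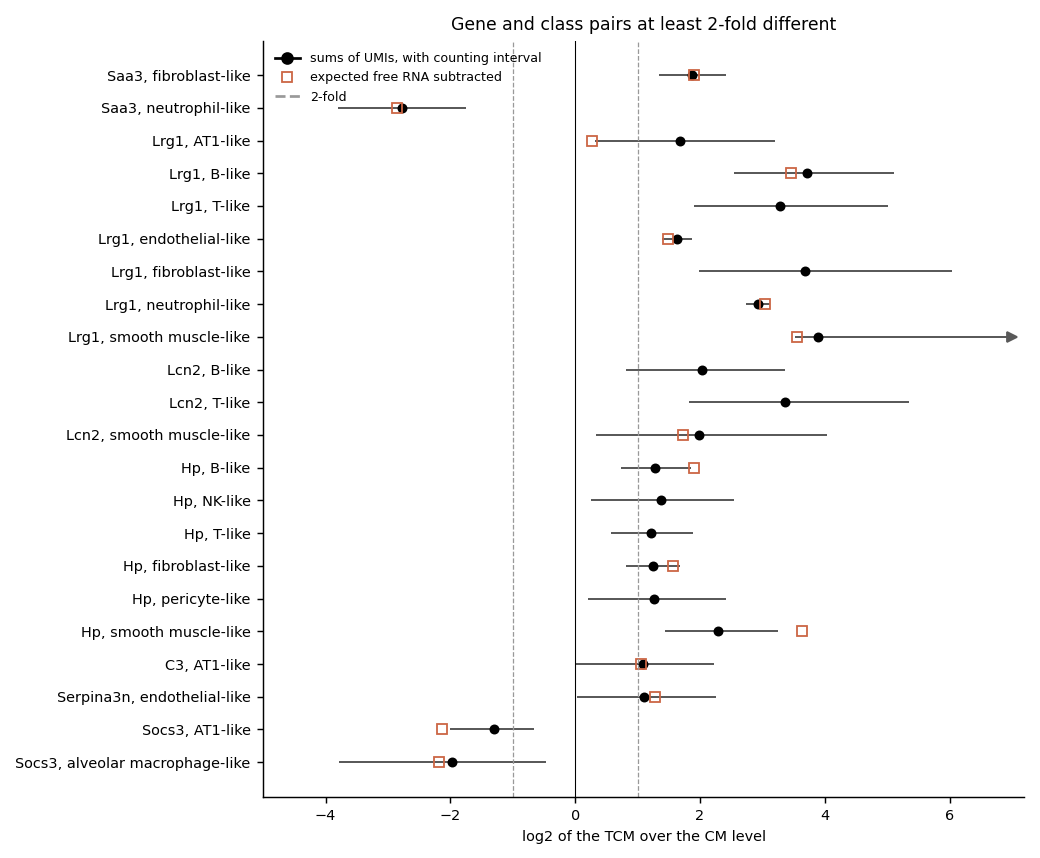
Log2 ratios of TCM over CM for the 22 called member and class pairs. Circles are ratios of summed UMIs with 95% intervals for counting error, an arrow marks an interval open at one end, and orange squares are ratios after subtraction of free RNA. Of the 22 pairs, 7 have no square, and Lrg1 in neutrophil-like cells stands at 2.94.

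Other genes of the pathway were counted by the same rule. Of 17 other genes of the IL-6 family and its signalling, 115 pairs were measured, 3 higher (2.61%) and 6 lower (5.22%), beside 2.62% and 3.19% over all genes. The higher share was thus that of all genes, and the genes named here are single values. The higher genes were Osmr, the oncostatin M receptor, in endothelial-like cells (192 and 528 UMIs, 4.84 and 10.8, log2 1.16, 0.92 to 1.40), Il6st in neutrophil-like cells (2 and 39 UMIs, 34.7 expected from free RNA in TCM) and Lif in fibroblast-like cells (8 and 14). The lower ones included Osm, the ligand of Osmr, in neutrophil-like cells (265 and 877 UMIs, 81.2 and 37.2, log2 -1.13, -1.33 to -0.92). In classical monocyte-like cells, too few for calls, Osm went the other way, from 28 to 274 UMIs (12.5 and 29.2, log2 1.23, 0.66 to 1.84). Of these cells, 8 of 55 in CM and 100 of 184 in TCM carried 3 neutrophil markers, and Osm was not recomputed without them. Cish in neutrophil-like, Osm and Clcf1 in endothelial-like and Lifr and Socs1 in B-like cells were the other lower ones, with 56 or fewer UMIs in CM. For the neutrophil-like pairs of Osm and Cish, the share of all genes lower in that class was 12.6%.

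Of 14 inducers and transcription factors of the acute-phase response, 4 of 133 pairs were higher and 4 lower, 3.01% each way and near the 2.62% and 3.19% of all genes. Il1b made up the higher ones, in B-like, T-like, fibroblast-like and smooth muscle-like cells. Free RNA gave an expectation of 128 Il1b UMIs in TCM fibroblast-like cells, where 71 were counted, and of 26.6 in smooth muscle-like cells, where 115 were counted. Tnf (16 and 49 UMIs, log2 -1.24) and Nfkb1 (51 and 171, log2 -1.11) were lower in neutrophil-like cells, where 12.6% of all genes were lower. Cebpd, a C/EBP factor, went from 480 to 144 UMIs in AT1-like cells (37.8 and 14.97, log2 -1.34, -1.62 to -1.06), and Nfkbiz stood at -1.21 there, the class in which Socs3 was also lower. Of the AT1-like cells, 68.0% in CM and 88.7% in TCM lay in the main cluster of the class.

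Of 25 other acute-phase protein genes, 8 of 43 pairs were higher (18.6%) and 3 lower (6.98%), beside 2.62% and 3.19% over all genes. This list too was chosen with earlier results of these data known. Steap4, a metalloreductase, went from 38 to 2012 UMIs in neutrophil-like cells (11.6 and 85.3, log2 2.87, 2.41 to 3.38), with 18.1 expected from free RNA in TCM. Its ratio was close to that of Lrg1 in the same cells. Cd14, the endotoxin co-receptor, was higher in B-like, T-like, fibroblast-like and smooth muscle-like cells, with 44, 39, 38 and 40 TCM UMIs where free RNA gave an expectation of 31.4, 42.9, 45.6 and 9.47. Serping1, the C1 inhibitor, was lower in AT2-like cells (117 and 36 UMIs, log2 -2.02, 32.5 expected from free RNA in TCM) and T-like cells (49 and 12, log2 -1.42). Serpina3g was lower in B-like cells (19 and 5). Cp was higher in neutrophil-like cells with 1 and 26 UMIs, 29.1 expected from free RNA in TCM. Steap4 was higher in endothelial-like (5 and 16) and smooth muscle-like cells (1 and 20), with 18.3 and 1.35 expected from free RNA in TCM.

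The level over all cells mixes class shares and levels within classes. For Lrg1, TCM levels weighted with the CM class shares gave 23.3, and CM levels with TCM shares gave 11.9, between 5.46 and 70.1. For Lcn2 the values were 16.4 and 25.02, between 11.6 and 39.1, and for Hp 34.1 and 37.5, between 25.7 and 62.0. Exchanging either moved all 3 genes up. Without neutrophil-like cells Lrg1 stood at 4.48 in CM and 16.5 in TCM. Cells of no class held 446 CM and 2382 TCM Lrg1 UMIs of these, and endothelial-like cells 209 and 799. In the exchange of shares, cells of no class entered as a class of their own. Neutrophil-like cells held 18.9% of the Lrg1 UMIs in CM and 78.5% in TCM, 18.7% and 67.2% of Lcn2, and 9.0% and 50.3% of Hp. For C3 the TCM levels at CM shares gave 17.7, above the TCM value of 16.8, and for Il6 1.05, against 0.821.

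**Figure D4:**
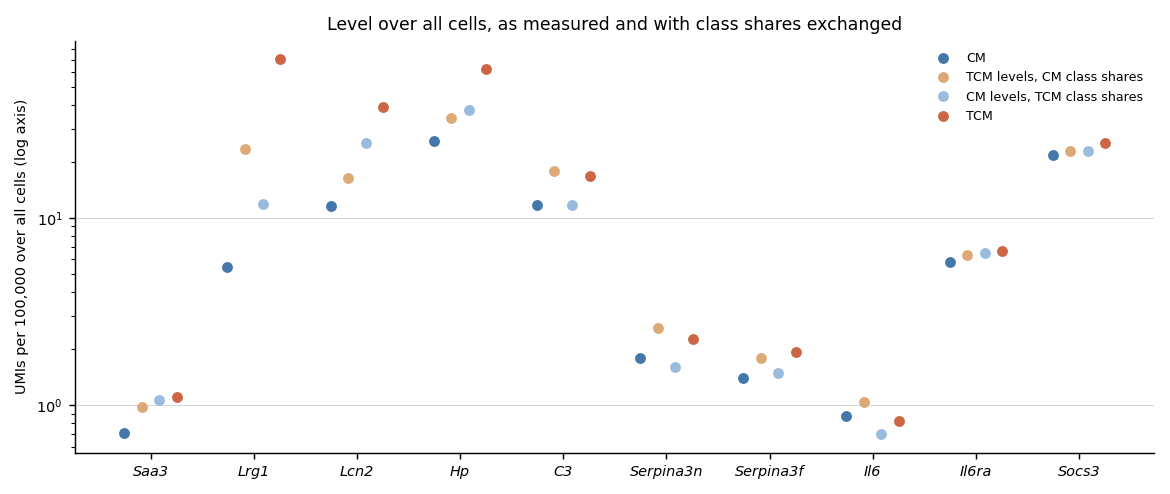
Level over all cells (CP100k) of each member in CM and TCM, with TCM levels at CM class shares and with CM levels at TCM class shares. Points are sums over 1 library each. Lrg1 goes from 5.46 to 70.1 and reaches 23.3 and 11.9 with the shares exchanged.

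Likeness of pattern was described by Pearson's r of log2(CP100k + 1) over 28 points, 14 classes in each of the libraries, among 11881 genes. The points share library, depth and free RNA. For Lrg1 the nearest genes were Hdc (r = 0.912), Lcn2 (0.906) and S100a8 (0.814), and for Lcn2 they were Ccdc189 (0.924), Hdc and Lrg1. Hp lay nearest Dgkg (0.905), F5 and Hdc, C3 nearest Eepd1 (0.816), Slc16a10 and Sowahc, and Saa3 nearest Pi16 (0.769), Myd88 and Prtn3. Serpina3n lay nearest Cox8b (0.94), Itgbl1 and Mmp2, and Serpina3f nearest Bcl6b (0.947), Gm11730 and Flt4. Il6 lay nearest Tmem132c (0.919), Tnfaip8l3 and Acss3, Il6ra nearest Ifi27l2a (0.774), Sap30 and Pstpip2, and Socs3 nearest the immediate-early genes Zfp36 (0.867) and Egr1, then Nfkbiz.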

How the data were processed

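Lung cells of 1 CM and 1 TCM library were profiled by droplet RNA-seq. The authors deposited raw UMI counts per gene and droplet, made, per the labels, with Cell Ranger 4 on mm10; no normalization had been applied. Droplets with at least 500 UMIs, 200 genes and at most 10% mitochondrial UMIs were kept. A cell joined the class with the largest detection-weighted share of its 10 markers (at least 3 detected, and the runner-up at most 0.67 of it). Raw UMIs were summed by class and library and divided by all UMIs of those cells, times 100000. Ratios carry 95% conditional binomial intervals, sums exact Poisson and shares Clopper-Pearson intervals, all for counting error only. A sum of 0 was set to 3 counts for a ratio, and no ratio was formed where both sums were at most 3 or a class had under 50 cells in a library. For shares of cells with a UMI, every cell was first thinned to 1000 UMIs. Free RNA came from droplets with at most 50 UMIs. Its size per cell began from the UMIs of 7 genes foreign to the class (Hba, Hbb and Scgb genes). The 10% trimmed mean of these UMIs over the cells of a class was divided by the share of the 7 genes in the free RNA. Doublets were scored with Scrublet (scanpy 1.11.5), whose automatic threshold marked 2 CM cells and 0 TCM cells and so did not work; no cell was removed for the main values, and removal of the top 6% of scores was an alternative.

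Named were all 10 members, the called genes of 3 further lists (at most 3 per list and class, by UMIs) and for each member with at least 200 UMIs the 3 genes of highest correlation. The members, lists and markers were chosen with earlier results of these data known. Results of 1 listed gene are not reported here. Gene positions are from GENCODE vM21 (GRCm38) and promoters from RefSeq (GRCm38.p6). Scripts used python 3.11.15, numpy 2.4.6, scipy 1.17.1, pandas 2.3.3 and leidenalg 0.10.2, and the ratio and interval code was tested on simulated data. Alternatives covered the cell filters, gate, Leiden clusters (resolution 1, 15 neighbours), thinning, free RNA, doublets, the highest cells, the total and the count minimum.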

Additional observations from a re-analysis of the deposited data

Results flagged for a closer look

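Some members moved in opposite directions in different classes under the same contrast. None of these differences between classes was tested, since each group was 1 library. Saa3 stood at log2 1.868 in fibroblast-like and -2.775 in neutrophil-like cells, the latter resting on 1 CM cell with 17 of 18 UMIs. C3 stood at 1.092 in AT1-like and -0.607 in neutrophil-like cells, where 51.3% of the CM UMIs lay in 12 granule gene cells. Socs3 stood at -1.304 in AT1-like and -1.977 in alveolar macrophage-like cells, against 0.181 in endothelial-like and 0.674 in neutrophil-like cells. The alveolar macrophage-like sums were 17 and 5 UMIs.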

How the results depend on the processing

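No paired analysis was possible because each group was 1 library. The 98 ratios were recomputed under 14 alternatives, 12 of them planned; the count minimum alters calls only. Of 1217 values, 1072 stayed within the main interval, and 69 had the other sign, 55 of them for ratios whose main interval held 0. Among ratios of at least 2-fold the sign changed in 4 values: for Saa3 in classical monocyte-like cells without the 10 highest cells of each library (-0.203), for Lrg1 in classical monocyte-like cells thinned to 1000 UMIs (-0.229), and for Lcn2 in general capillary-like cells with free RNA subtracted, from droplets of at most 50 UMIs (-0.596) or of 51 to 200 UMIs (-0.541). Among smaller ratios with an interval off 0 it changed in 10 values: C3 in neutrophil-like cells with mean CP100k (0.092), thinned (0.256), without the 10 highest (0.657) or the granule gene cells (0.218), Hp with free RNA subtracted in endothelial-like (-2.036) and general capillary-like cells (-0.551), Hp in AT1-like cells of at least 1000 UMIs (-0.112), Socs3 in smooth muscle-like cells with mean CP100k (0.043) or thinned (0.072) and Socs3 in alveolar fibroblast-like cells with mean CP100k (0.022). The causes were not tested. Leaving out granule gene cells, and cells of other classes with 3 neutrophil markers, was chosen after seeing the data. Of the 22 called ratios, 10 were at least 2-fold in every alternative that gave a value, among them Lrg1 in neutrophil-like (2.79 to 3.37) and endothelial-like cells (1.15 to 2.10). Of these 10, only those and Serpina3n in endothelial-like cells had a value in every alternative. Lrg1 in T-like and fibroblast-like and Lcn2 in B-like and T-like cells had none with free RNA subtracted. Saa3 in fibroblast-like and neutrophil-like cells had none without the 10 highest cells. The count of 19 higher pairs fell to 8 with cells thinned to 1000 UMIs, 10 with free RNA subtracted, 10 without the 10 highest cells and 8 with a minimum of 50 UMIs, and the 3 lower pairs to 1 with thinned cells, 1 without the 10 highest cells and 1 with a minimum of 50 UMIs. These 4 settings left fewer than 60 pairs to measure: 35 with thinned cells, 44 with free RNA subtracted, 36 without the 10 highest cells and 39 with the higher minimum. Over all genes, thinning gave 3.66% higher and 4.04% lower, and free RNA subtraction 2.46% and 4.38%. The minimum of 50 UMIs gave 1.17% and 1.39%, and no such share was formed without the 10 highest cells. The other alternatives gave 13 to 22 higher and 2 to 4 lower of 51 to 69 pairs. Their shares over all genes were 2.42% to 4.99% higher and 2.95% to 4.85% lower. Sums below about 20 UMIs limit what can be seen, and depth cannot stand in for mice.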
